A study of Arabidopsis thaliana with 9 samples.

Results

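Argonaute proteins are the effectors of RNA silencing, and Arabidopsis thaliana encodes a family of 10 of them, AGO1 to AGO10. The 10 genes were chosen by gene name and identifier, from AT1G48410 for AGO1 to AT5G43810 for AGO10, and make up the whole family among the 28117 genes of the deposited table. No expression value enters that choice, but the family was put forward with earlier results of these data known, so its calls are read off the fit over all genes as a description. The mRNA was sequenced from whole seedlings of 10 days, grown on MS plates in 16 h of light and 8 h of darkness at 22 °C. The 3 genotypes were wild type (WT), the triple mutant arid2-/- arid3-/- arid4-/- (arid2/3/4) and the double mutant epcr1-/- epcr2-/- (epcr1/2), with 3 libraries each and no further treatment. ARID and EPCR proteins are subunits of the PEAT complexes, which the series title links to histone deacetylation and heterochromatin silencing. The labels name neither the alleles beyond these symbols nor how many plants or lines stand behind a library.

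An Argonaute protein holds a small RNA as a guide, pairs it with a target transcript, and cuts that transcript, blocks its translation or recruits factors that methylate DNA. In plants the family falls into 3 clades. AGO1, AGO5 and AGO10 form the first, in which AGO1 carries most microRNAs in vegetative tissue, AGO10 sequesters miR166 in the shoot meristem, and AGO5 is known mainly from reproductive tissue and virus defence. AGO2, AGO3 and AGO7 form another, in which AGO2 acts in antiviral and antibacterial defence, and AGO7 binds miR390 to start the synthesis of TAS3 small interfering RNAs. AGO4, AGO6, AGO8 and AGO9 form the clade of RNA-directed DNA methylation, with AGO9 known from the ovule, and AGO8 often regarded as a pseudogene.

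The positions below are those of RefSeq's TAIR10.1 annotation, to which all 10 genes were matched by locus tag. The submitters' notes name TAIR10, and the deposited table itself carries no coordinates. AGO1 lies on the minus strand at chr1:17885633-17892632, with 22 exons in its longest transcript. AGO5 lies on the plus strand at chr2:11871378-11876989, with 20 exons, and AGO10 on the plus strand at chr5:17610744-17616907, also with 20. AGO2 (chr1:11181504-11185396, 3 exons) and AGO3 (chr1:11188120-11192585, 4 exons) sit head to tail on the plus strand, 2723 bases apart. AGO7 lies on the minus strand at chr1:26101407-26105328, with 3 exons. AGO4 (chr2:11536502-11542391), AGO6 (chr2:13971916-13977521) and AGO8 (chr5:7139817-7144272) are on the minus strand, and AGO9 (chr5:7192239-7198381) is on the plus strand 47966 bases from AGO8. The annotation counts all 10 as protein coding, with 850 codons in AGO8 as the shortest and 1158 in AGO3 as the longest. AGO2 and AGO3 share 102 of their 25-base words, 2.85% of those of AGO2, AGO8 and AGO9 share 34, and no pair of members shares a word of 50 bases. The way the authors treated reads that match several genes is not given in the sources used here, so the AGO2 and AGO3 values could exchange a small part of their reads.

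MicroRNAs control 3 of the members, and their sequences are shown because AGO1, AGO2 and AGO3 are read against them later. The RefSeq annotation of TAIR10.1 places miR168a-5p at chr4:10578652-10578672 on the plus strand and miR403-3p at chr2:19415154-19415174 on the plus strand. Capitals mark the seed, bases 2 to 8 of the microRNA, and in each site the bases opposite it. All are written 5′ to 3′.
miR168a-5p: uCGCUUGGugcaggucgggaa
AGO1 site: ttcccgagctgcaTCAAGCTa
miR403-3p: uUAGAUUCacgcacaaacucg
AGO2 site: ggagtttgtgcgtGAATCTAa
AGO3 site: gatgtttgtgcgtGAATCTAa
The AGO1 site lies in the coding sequence at chr1:17891529-17891549 on the minus strand, and 3 of its 21 bases are not complementary to miR168a-5p, of which 1 is a G:U pair. The miR403-3p sites lie in the 3′ UTR of AGO2 (chr1:11185223-11185243) and of AGO3 (chr1:11192399-11192419), both on the plus strand, with 1 and 3 bases not complementary. For either microRNA, the closest window in the longest transcript of any other member left at least 6 of 21 bases not complementary.

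The 250 bases before the annotated start are shown for AGO3 and AGO5, the members with the largest differences from WT in epcr1/2 and in arid2/3/4. They were read from TAIR10.1 on the plus strand at chr1:11187870-11188119 and chr2:11871128-11871377, and overlap no exon of another gene. Capitals mark ACGTG on either strand, the core of many stress and abscisic acid response elements, which was searched after the sequences were seen.
AGO3 upstream: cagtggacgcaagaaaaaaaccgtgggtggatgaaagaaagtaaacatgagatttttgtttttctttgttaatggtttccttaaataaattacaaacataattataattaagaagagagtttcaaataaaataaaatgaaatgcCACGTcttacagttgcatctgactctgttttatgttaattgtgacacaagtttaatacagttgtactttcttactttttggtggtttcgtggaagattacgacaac
AGO5 upstream: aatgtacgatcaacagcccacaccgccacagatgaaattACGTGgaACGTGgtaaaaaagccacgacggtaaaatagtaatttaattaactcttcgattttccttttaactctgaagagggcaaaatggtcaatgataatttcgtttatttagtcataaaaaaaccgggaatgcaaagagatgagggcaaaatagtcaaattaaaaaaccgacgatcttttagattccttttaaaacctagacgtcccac
The windows of 9 members were searched, without that of AGO9, and ACGTG was found in 4 of them (AGO1, AGO3, AGO4 and AGO5), against 22.9% of the windows of all 27443 protein-coding genes. In AGO5 it occurred 211 and 204 bases before the start, and in AGO3 106 bases before it. The telobox AAACCCTA, the short telomere-like motif bound by the TRB subunits of PEAT, was in 0 of the 9 windows on either strand and in 4.49% of all windows. The RY repeat CATGCA, common before seed genes, was in 0 of 9 and in 8.43% of all. ACGTG read on both strands can overlap itself, as in CACGTG, and a window counts once.

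The deposited values are FPKM, that is, fragments scaled by the length of the transcript and by the mapped fragments of the library, and they give no counts. Steps among the lowest values put the depth of replicates 1 and 2 roughly at 17.7 to 25.4 M fragments and that of replicate 3 at 50.4 to 58.3 M, so a value from replicate 3 rests on more fragments. Replicates 1 and 2 of a genotype were nearly alike over the tested genes (Pearson r of log2(FPKM + 1) 0.994 to 0.995), and replicate 3 stood apart (0.835 to 0.883). ARID2 was listed at 2.06 to 2.15 FPKM in arid2/3/4 against 20.1 to 22.5 in WT, and ARID3 and ARID4 were also lower there, at 3.60 to 5.62 against 8.22 to 8.68 and at 3.13 to 4.28 against 10.9 to 13.6. EPCR1 was at 0.344 to 1.08 in epcr1/2 against 10.5 to 16.4 in WT. EPCR2 was not lower, at 10.1, 10.4 and 12.0 against 8.36, 6.99 and 11.8, and where its mutation lies is not given in the sources used here. The labels name no separate cultures or plants. A p-value here thus reflects only the spread of libraries within genotypes, pooled over all 3 genotypes and drawn toward that of other genes. Part of that spread may be technical.

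In WT seedlings AGO1 was the highest Argonaute mRNA, above 92% of all genes of the table, and AGO8 the lowest. The WT mean was 61.4 FPKM for AGO1, 22.0 for AGO4, 17.0 for AGO10, 8.23 for AGO2, 2.98 for AGO7 and 1.20 for AGO6. It was 0.596 for AGO3, 0.489 for AGO9, 0.117 for AGO5 and 0.0263 for AGO8. FPKM is scaled by transcript length, so these levels can be set beside each other. The ranges of AGO4 and AGO10 overlapped across libraries, but AGO4 was above AGO10 in each of the 3. For AGO3 with AGO9, AGO9 with AGO5, and AGO5 with AGO8 the order changed between the libraries, so it is not resolved.

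**Figure D1:**
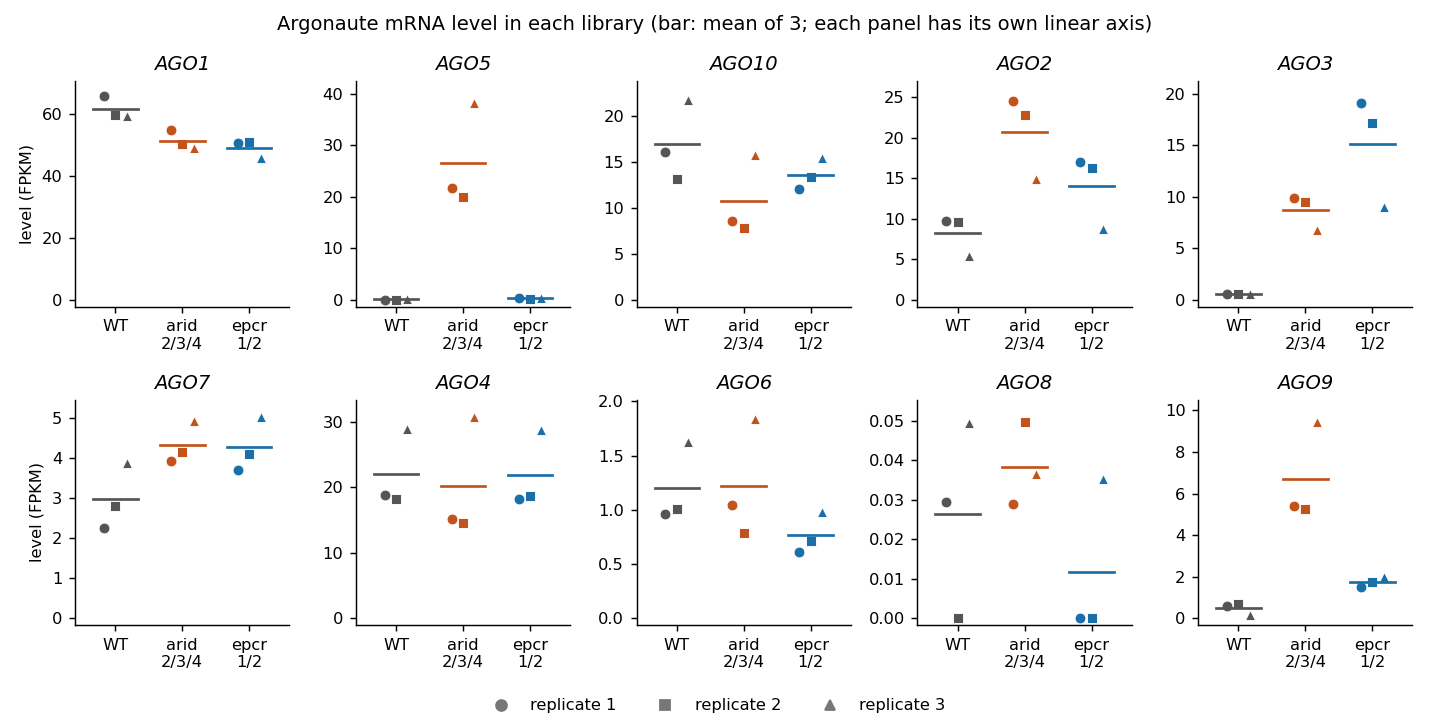
Level of each Argonaute gene in FPKM (vertical axes, linear, one scale per panel) in the 3 libraries of each genotype, with the mean of 3 as a bar and the replicate number as the marker. AGO5 stood at 19.9 to 38.2 FPKM in arid2/3/4 and at no more than 0.436 in the other genotypes, and AGO3 stood at about 0.6 in WT and at 6.82 or more in both mutants.

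Replicate 3 carried its own pattern for several members, in all genotypes. AGO4 was higher there than the mean of replicates 1 and 2 by 0.61 in WT, 1.00 in arid2/3/4 and 0.61 in epcr1/2 on the log2(FPKM + 1) scale, and AGO10 by 0.55, 0.87 and 0.27. AGO2 differed from that mean by -0.74, -0.63 and -0.85. AGO1 moved least among the abundant members, by -0.14 to -0.08. These shifts count as spread in a fit without the replicate number, so the fit with that number as a block is given beside each call that it changes. The block counts replicates 1 and 2 as separate although they were nearly alike, so each call gained with it was also looked up in a fit with those 2 averaged and a batch term. Of the 8 member calls gained with the block, only that of AGO2 in epcr1/2 also passed there.

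AGO5 (AT2G27880) showed the largest difference of the family, and it was found in arid2/3/4. Its level was 0.0214, 0.0498 and 0.280 FPKM in WT, 21.8, 19.9 and 38.2 in arid2/3/4, and 0.341, 0.270 and 0.436 in epcr1/2. All arid2/3/4 libraries were far above all others, while WT and epcr1/2 overlapped. The log2 difference of arid2/3/4 from WT was 4.58 ± 0.24 (SE, limma, adjusted p 7.01e-05). From epcr1/2 it was 4.30 ± 0.24 (adjusted p 0.000133), and the difference of epcr1/2 from WT was 0.28 ± 0.24 (adjusted p 0.443). AGO5 passed the filter on low values only through arid2/3/4, so a difference there was built into its passing, and its p-values are read as a description. In a fit with no filter the adjusted p was 8.8e-05 against WT and 0.00023 against epcr1/2. The 2 lowest WT values stand for about 1.6 and 3.4 fragments and the WT value of replicate 3 for about 48, so the ratio to WT is poorly fixed. It was 137 in replicate 3 and 228 for the ratio of means, and with a pseudocount of 0.1 in place of 1 the log2 difference was 7.07. In rank among all genes, AGO5 moved from above 21.6% of them in WT to above 81.3% in arid2/3/4, and in that genotype it was the Argonaute mRNA with the highest mean after AGO1. In a bulk seedling library, more cells with AGO5 mRNA and more AGO5 mRNA per cell cannot be told apart, which holds for each gene described here.

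AGO1 (AT1G48410), the main carrier of microRNAs, was somewhat lower in both mutants. It was at 65.5, 59.7 and 59.1 FPKM in WT, 54.8, 50.1 and 49.0 in arid2/3/4, and 50.4, 50.7 and 45.7 in epcr1/2. No mutant library reached the lowest WT library. The log2 difference from WT was -0.26 ± 0.12 in arid2/3/4 (limma, adjusted p 0.174) and -0.32 ± 0.12 in epcr1/2 (adjusted p 0.0813), neither of which passed. With the replicate block the adjusted p was 0.0467 and 0.0185, and with replicates 1 and 2 averaged 0.27 and 0.153. Within each replicate number AGO1 was lower than WT, by -0.27 to -0.25 in arid2/3/4 and by -0.37 to -0.23 in epcr1/2. Between the mutants the difference was 0.07 ± 0.12 (adjusted p 0.81), and its sign turned to -0.04 when each library was centred on its median.

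AGO10 (AT5G43810) has a known place in the shoot meristem and leaf polarity, and it ran the other way from AGO5 in arid2/3/4. The values were 16.1, 13.2 and 21.8 FPKM in WT, 8.58, 7.80 and 15.8 in arid2/3/4, and 12.1, 13.4 and 15.5 in epcr1/2. Replicate 3 of arid2/3/4 overlapped WT, and each arid2/3/4 library was below the WT library with its number, by -0.84, -0.69 and -0.44 on the log2(FPKM + 1) scale. The difference from WT was -0.66 ± 0.28 (limma, adjusted p 0.134), and with the replicate block the adjusted p was 0.0145. It was 0.121 with replicates 1 and 2 averaged and 0.0157 without arid2/3/4 replicate 3. In epcr1/2 it was -0.28 ± 0.28 (adjusted p 0.51), and 0.169 with the block.

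AGO3 (AT1G31290) was close to silent in WT seedlings and rose in both mutants. It was at 0.585, 0.603 and 0.600 FPKM in WT, 9.92, 9.47 and 6.82 in arid2/3/4, and 19.1, 17.2 and 9.05 in epcr1/2. No mutant library overlapped WT. The log2 difference was 2.59 ± 0.27 in arid2/3/4 (limma, adjusted p 0.000804) and 3.27 ± 0.27 in epcr1/2 (adjusted p 0.000228). The ratio to the WT library with the same number was 17.0, 15.7 and 11.4 in arid2/3/4 and 32.6, 28.5 and 15.1 in epcr1/2. Each arid2/3/4 library was below the epcr1/2 library with its number, although the ranges overlapped. That difference was -0.68 ± 0.27 (adjusted p 0.162), and with the replicate block the adjusted p was 0.0429. It was 0.257 with replicates 1 and 2 averaged and 0.0195 without epcr1/2 replicate 3.

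AGO2 (AT1G31280), the defence-related neighbour of AGO3, was already expressed in WT and rose in arid2/3/4. The values were 9.72, 9.59 and 5.36 FPKM in WT, 24.5, 22.8 and 14.9 in arid2/3/4, and 17.0, 16.3 and 8.75 in epcr1/2. All arid2/3/4 libraries were above WT, and replicate 3 of epcr1/2 fell within the WT range. The log2 difference from WT was 1.25 ± 0.32 in arid2/3/4 (limma, adjusted p 0.0298) and 0.69 ± 0.32 in epcr1/2 (adjusted p 0.153, or 0.00145 with the replicate block, 0.0416 with replicates 1 and 2 averaged and 0.0472 without epcr1/2 replicate 3). The arid2/3/4 call did not hold when any WT library, or arid2/3/4 replicate 1 or 2, was left out, with adjusted p of 0.06 to 0.11. The ratio to the WT library of the same number was even, 2.38 to 2.79 in arid2/3/4 and 1.63 to 1.75 in epcr1/2. Between the mutants AGO2 was higher in arid2/3/4 by 0.56 ± 0.32 (adjusted p 0.338, or 0.00741 with the block and 0.114 with replicates 1 and 2 averaged), and AGO3 was the lower of the pair there.

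AGO7 (AT1G69440), the partner of miR390, was slightly higher in both mutants. Its level was 2.25, 2.80 and 3.88 FPKM in WT, 3.92, 4.15 and 4.92 in arid2/3/4, and 3.71, 4.09 and 5.01 in epcr1/2. The arid2/3/4 libraries lay just above the highest WT library, and 1 epcr1/2 library lay below it. The log2 difference was 0.44 ± 0.19 in arid2/3/4 and 0.42 ± 0.19 in epcr1/2 (limma, adjusted p 0.14 in each). Adjusted p was 0.0172 and 0.0167 with the replicate block, 0.0265 and 0.0126 after quantile normalization, and 0.0404 and 0.0177 after median centring. It was 0.168 and 0.143 with replicates 1 and 2 averaged. Without WT replicate 3 it was 0.0493 in epcr1/2.

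AGO9 (AT5G21150), known from the ovule, rose in both mutants and most in arid2/3/4. Its level was 0.609, 0.693 and 0.165 FPKM in WT, 5.39, 5.27 and 9.46 in arid2/3/4, and 1.52, 1.76 and 2.01 in epcr1/2. The 3 genotypes did not overlap. The log2 difference from WT was 2.35 ± 0.24 in arid2/3/4 (limma, adjusted p 0.000769) and 0.91 ± 0.24 in epcr1/2 (adjusted p 0.0248). The mutants differed by 1.44 ± 0.24 (adjusted p 0.00965). The epcr1/2 call did not hold when WT replicate 1, WT replicate 3 or any epcr1/2 library was left out, at log2 differences of 0.74 to 0.97. With replicates 1 and 2 averaged and a batch term, the adjusted p was 0.0865 for epcr1/2 against WT and 0.0932 between the mutants. WT replicate 3 was the lowest of the 9 libraries, at about 26 fragments, and the ratio of arid2/3/4 to WT was 57.2 at that number against 8.86 and 7.61 at the other two.

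AGO4 (AT2G27040), the main Argonaute of RNA-directed DNA methylation, was not called in any comparison. It was at 18.9, 18.2 and 28.9 FPKM in WT, 15.2, 14.5 and 30.7 in arid2/3/4, and 18.2, 18.7 and 28.8 in epcr1/2. Replicate 3 was the highest library in every genotype, and the genotypes overlapped. The log2 difference was -0.17 ± 0.33 in arid2/3/4 (limma, adjusted p 0.762) and -0.01 ± 0.33 in epcr1/2 (adjusted p 0.991), and the block changed neither call. AGO6 (AT2G32940), which works beside AGO4, was at 0.962, 1.01 and 1.62 FPKM in WT, 1.04, 0.791 and 1.84 in arid2/3/4, and 0.613, 0.715 and 0.981 in epcr1/2. Its log2 difference was 0.00 ± 0.20 in arid2/3/4 (adjusted p 0.998) and -0.30 ± 0.20 in epcr1/2 (adjusted p 0.313). AGO8 (AT5G21030) was between 0 and 0.0497 FPKM in the 9 libraries, at most about 6.6 fragments, and was listed at 0 in 3 of them. It did not pass the filter and was not tested, and in a fit with no filter its adjusted p was 0.524 to 0.756.

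**Figure D2:**
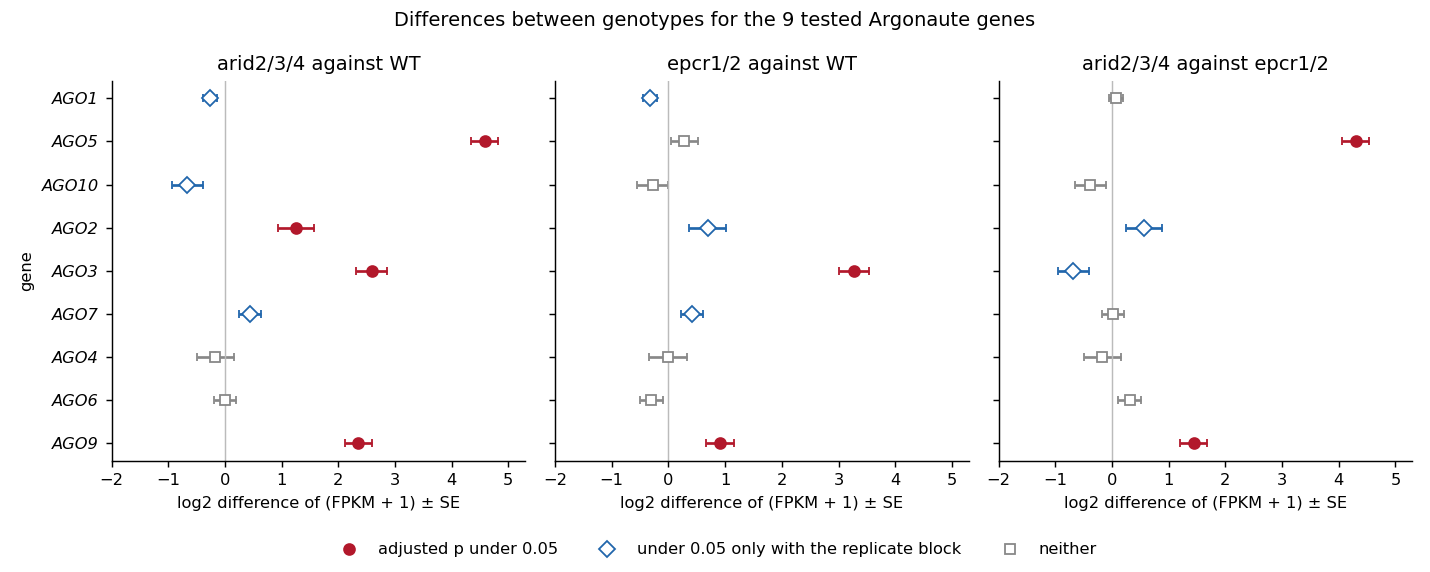
Log2 difference of (FPKM + 1) with its SE (horizontal axes) for the 9 tested Argonaute genes (vertical axis) in the 3 comparisons. Filled circles had an adjusted p under 0.05, open diamonds only with the replicate block. AGO5 lies at 4.58 and 4.30 in the panels with arid2/3/4 and at 0.28 in epcr1/2 against WT, and AGO3 lies at 2.59 and 3.27 in the mutants.

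Counted over the family, 4 of the 9 tested members were higher in arid2/3/4 than in WT (AGO2, AGO3, AGO5 and AGO9), 0 were lower, and 5 were not called. At an unadjusted p under 0.05 limma gave 5 higher and 1 lower. Over all 21168 tested genes 8.78% were higher and 12% lower in that comparison. In epcr1/2 AGO3 and AGO9 were higher, 0 were lower and 7 were not called, beside 10.8% of all genes higher and 17.8% lower, and at an unadjusted p under 0.05 it was 2 higher and 1 lower. Between the mutants AGO5 and AGO9 were higher in arid2/3/4 and 0 were lower (2 and 1 at an unadjusted p under 0.05), beside 5.71% and 4.77% of all genes. Both mutants were set against the same WT libraries, so their counts are not independent. With the replicate block 5 members were higher and 2 lower in arid2/3/4, and 4 higher and 1 lower in epcr1/2. It gave 3 higher and 1 lower between the mutants. That fit called 45.1%, 51.2% and 28.5% of all genes in either direction. The median difference of all tested genes was -0.05, -0.12 and 0.09. With each library centred on its median, higher genes went from 37.7% to 50.7% of the calls in epcr1/2 against WT and from 54.5% to 39.9% between the mutants. Nothing is read from the family's counts, because the family was put forward with results of these data known.

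The make-up of the Argonaute mRNA pool differed between genotypes. The summed level of the 10 genes was 106 to 122 FPKM in WT, 135 to 172 in arid2/3/4 and 116 to 123 in epcr1/2, so arid2/3/4 lay above both without overlap. AGO1 made up 48.6% to 57.1% of that sum in WT, 28.5% to 37.7% in arid2/3/4 and 39.3% to 41.2% in epcr1/2. AGO5 made up 14.7% to 22.3% in arid2/3/4, against 0.0187% to 0.23% in WT and 0.22% to 0.375% in epcr1/2. AGO3 went from 0.493% to 0.57% in WT to 3.97% to 7.02% in arid2/3/4 and 7.79% to 15.5% in epcr1/2. Behind AGO1, AGO5 was above AGO4 in each arid2/3/4 library, while the place of AGO2 among them changed. In epcr1/2 AGO3 was above AGO2 in each library, while the order of AGO4 with AGO3 and of AGO2 with AGO10 changed. These are shares of mRNA, and protein was not measured.

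**Figure D3:**
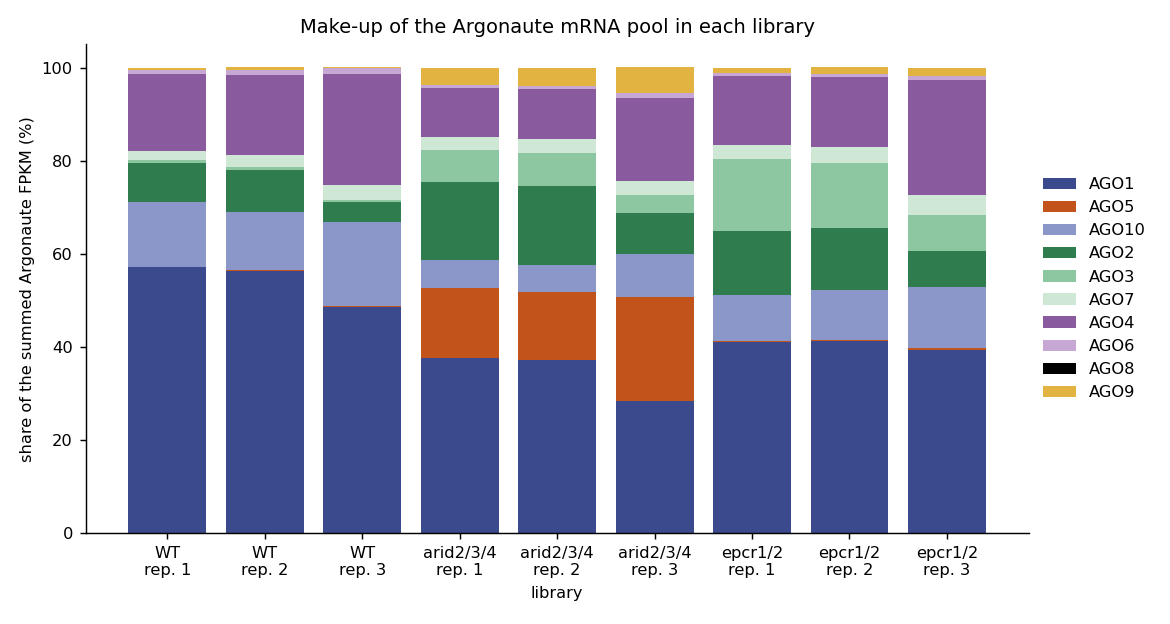
Share of each Argonaute gene in the summed FPKM of the 10 genes (vertical axis, percent) in each of the 9 libraries (horizontal axis). The AGO1 share is 48.6% to 57.1% in WT and 28.5% to 41.2% in the mutants, and the AGO5 share is visible in arid2/3/4, at 14.7% to 22.3%.

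The genes next to the members were examined after the data had been seen, as the 4 nearest genes of the table on each side. Calls over all tested genes were 8.78% higher and 12% lower in arid2/3/4, and 10.8% and 17.8% in epcr1/2. With so few neighbours, their counts of calls cannot be told apart from these shares. Around AGO5, 6 of the 8 neighbours were tested and 0 were called in either mutant (limma, and 0 at an unadjusted p under 0.05). HDT4, which encodes a histone deacetylase of the plant HD2 type, lies 3 genes before AGO5 and was at 30.0 FPKM in WT, 33.0 in arid2/3/4 and 34.3 in epcr1/2 (means of 3). Around AGO9, 5 were tested and 0 were called, and in each mutant 2 were lower at an unadjusted p under 0.05. AGO2 and AGO3 rose beside each other in arid2/3/4, and the gene after AGO3, AT1G31300, was at 23.1, 22.5 and 18.2 FPKM on average in WT, arid2/3/4 and epcr1/2 and was not called. The gene after that, AT1G31310, was lower in both mutants, by a log2 difference of -0.75 (adjusted p 0.0236) and -0.69 (adjusted p 0.0249).

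**Figure D4:**
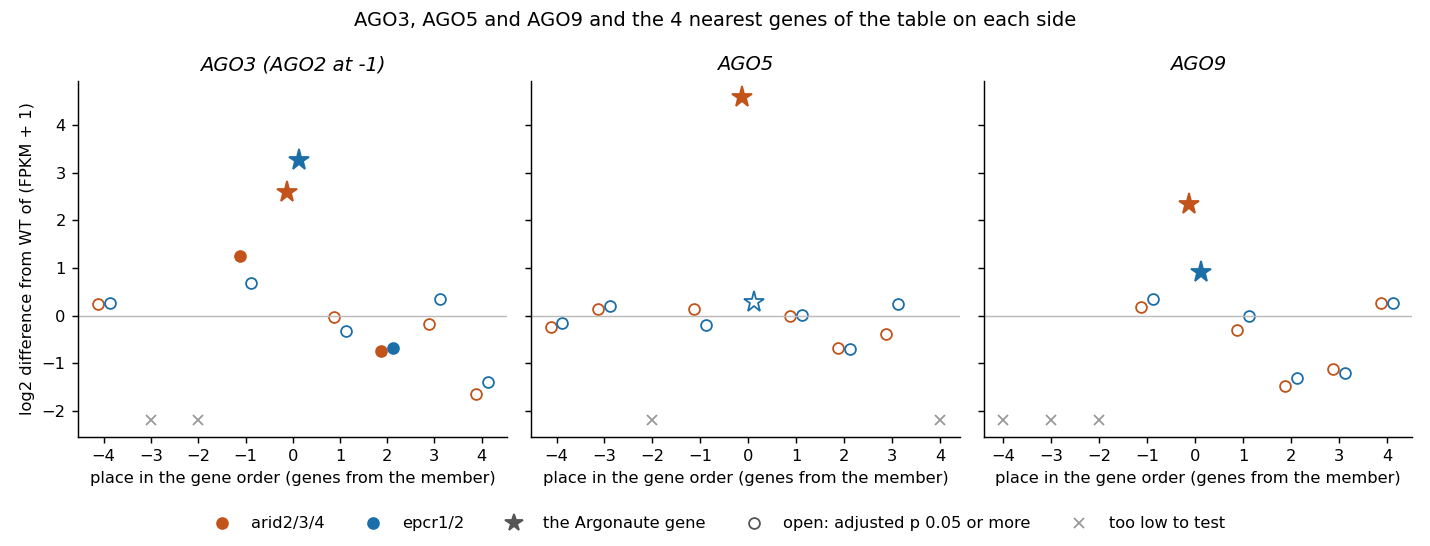
Log2 difference from WT of (FPKM + 1) (vertical axis) for AGO3, AGO5 and AGO9 (stars) and the 4 nearest genes on each side (circles), by place in the gene order (horizontal axis). Filled symbols had an adjusted p under 0.05 and crosses mark genes too low to test. The star of AGO5 in arid2/3/4 stands at 4.58 with no filled neighbour around it. Over all tested genes, 8.78% were higher and 12% lower in arid2/3/4.

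Of the enzymes that make and stabilise small RNAs, DCL3 fell in arid2/3/4 and RDR6 in both mutants. Of 21 genes, 1 rose and 2 fell in arid2/3/4 (median log2 difference -0.07, against -0.05 for all genes), and 0 rose and 4 fell in epcr1/2 (-0.19 against -0.12; 2 higher and 4 lower at an unadjusted p under 0.05). Of all genes, 8.78% were higher and 12% lower in arid2/3/4, and 10.8% and 17.8% in epcr1/2, so these counts are near the background. With the replicate block it was 2 higher and 5 lower in arid2/3/4 and 1 and 5 in epcr1/2. That fit called 45.1% and 51.2% of all genes in either direction. DCL3, the Dicer that makes the small RNAs bound by the AGO4 clade, was at 2.20, 2.13 and 3.07 FPKM in WT and at 0.370, 0.352 and 0.660 in arid2/3/4, without overlap (-1.24 ± 0.17, adjusted p 0.00237). In epcr1/2 DCL3 was at 1.57, 1.81 and 2.33 (adjusted p 0.308). RDR6, the RNA polymerase that makes double-stranded RNA from cut transcripts, was at 8.94 to 10.5 FPKM in WT and fell in both, to 2.62 to 4.32 in arid2/3/4 (-1.28 ± 0.18, adjusted p 0.00273) and 4.26 to 5.63 in epcr1/2 (-0.83 ± 0.18, adjusted p 0.0107). Its partner SGS3 fell in epcr1/2, to 4.35 to 5.65 FPKM against 9.40 to 21.8 in WT (-1.49 ± 0.28, adjusted p 0.00634), and was at 21.0 to 24.1 in arid2/3/4 (adjusted p 0.243). DRB4, the double-stranded RNA binder that works with DCL4, fell in epcr1/2 (-1.36 ± 0.25, adjusted p 0.00548), as did the exonuclease SDN1 (-0.88 ± 0.21, adjusted p 0.0152). CPL1, a phosphatase that acts on HYL1, rose in arid2/3/4 (0.46 ± 0.13, adjusted p 0.0393), and that call was lost when any WT library or replicate 1 or 2 of either mutant was left out. The SDN1 call was lost without WT replicate 1 or 2, and after quantile normalization (adjusted p 0.0916) or median centring (0.0837). Of the core microRNA factors, DCL1 was at 8.00 to 9.53 FPKM in WT, 7.31 to 10.4 in arid2/3/4 and 7.68 to 9.36 in epcr1/2, and SE at 24.6 to 30.4, 23.5 to 28.8 and 22.8 to 23.4, which in epcr1/2 is below every WT library. HYL1 was at 9.15 to 10.8 in WT and lower, without overlap, at 6.07 to 7.81 in arid2/3/4. HYL1 (adjusted p 0.0693), HEN1 (0.0865) and RDR2 (0.221) were not called in arid2/3/4, nor in epcr1/2. With the block HYL1 (0.0291) and HEN1 (0.011) passed in arid2/3/4, both as lower, and with replicates 1 and 2 averaged neither did (0.165 and 0.111).

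Genes for the loading and turnover of Argonaute proteins were few. Of 4, 1 rose in each mutant and 0 fell (medians 0.48 and 0.84, with 0 lower at an unadjusted p under 0.05 in limma in either). It was HSP90.1, a heat-inducible chaperone, at 8.70 to 14.3 FPKM in WT, 18.3 to 56.1 in arid2/3/4 (1.73 ± 0.51, adjusted p 0.0462) and 28.5 to 76.3 in epcr1/2 (2.26 ± 0.51, adjusted p 0.0128). Replicate 3 was the lowest library of either mutant. The arid2/3/4 call was lost without any 1 library except replicate 3 of either mutant, and also after either rescaling, with no filter and with only the groups compared (adjusted p 0.0518 to 0.157 over these). The epcr1/2 call was lost without epcr1/2 replicate 1 or 2 (0.053 and 0.0531). With replicates 1 and 2 averaged and a batch term both were lost (0.176 and 0.0748). With the block 2 genes of the list were higher in arid2/3/4 and 3 in epcr1/2. Without the block 8.78% of all genes were higher and 12% lower in arid2/3/4, and 10.8% and 17.8% in epcr1/2 (medians -0.05 and -0.12). With it 45.1% and 51.2% of all genes were called in either direction. SQN, a cyclophilin needed for AGO1 function, was at 10.9 to 13.1 FPKM in WT, 10.2 to 16.8 in arid2/3/4 and 10.9 to 12.8 in epcr1/2. FBW2, the F-box protein that marks AGO1 for degradation, was at 38.1 to 54.0, 46.6 to 53.9 and 48.2 to 65.2, and neither was called (the adjusted p of FBW2 in epcr1/2 was 0.0215 with the block and 0.123 with replicates 1 and 2 averaged).

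Among the partners of AGO4 and its clade in RNA-directed DNA methylation, lower genes outnumbered higher ones, as they did over all genes. Of 16 genes, 0 rose and 6 fell in arid2/3/4 (median -0.35; 2 higher and 6 lower at an unadjusted p under 0.05), and 1 rose and 6 fell in epcr1/2 (median -0.36). The shares of all genes were 8.78% higher and 12% lower, and 10.8% and 17.8%, with medians of -0.05 and -0.12. With the block 2 were higher and 6 lower in arid2/3/4, and 1 higher and 9 lower in epcr1/2. That fit called 45.1% and 51.2% of all genes in either direction. NRPE1, the largest subunit of RNA polymerase V, whose transcripts AGO4 pairs with, was at 3.15 to 4.04 FPKM in WT, 1.02 to 1.95 in arid2/3/4 (-1.01 ± 0.18, adjusted p 0.00734) and 0.763 to 1.06 in epcr1/2 (-1.28 ± 0.18, adjusted p 0.00183). DRD1, the remodeller that lets polymerase V onto chromatin, was at 4.71 to 5.36 in WT and fell to 1.17 to 1.52 (-1.37 ± 0.13, adjusted p 0.000653) and 1.73 to 2.26 (-1.05 ± 0.13, adjusted p 0.00117). IDN2, a double-stranded RNA binder, fell in arid2/3/4 (-1.25 ± 0.21, adjusted p 0.00542) and was at 15.7 to 25.7 FPKM in epcr1/2 against 19.6 to 24.9 in WT. SUVR2 fell in epcr1/2 (-1.07 ± 0.19, adjusted p 0.00518). With replicates 1 and 2 averaged and a batch term, NRPE1, SHH1, DMS3 and FDM1 lost their arid2/3/4 calls (limma, adjusted p 0.0602, 0.0776, 0.0613 and 0.162). DRD1 and IDN2 kept theirs (0.0288 and 0.0354). In epcr1/2 NRPD1, called as higher, and RDM4, called as lower, were lost in that fit (0.111 and 0.0628), and the other calls held. SPT5L, which binds AGO4 through its repeats, was at 13.6 to 17.8 FPKM in WT, 10.8 to 13.6 in arid2/3/4 and 11.0 to 13.6 in epcr1/2, and was not called (adjusted p 0.188 and 0.181).

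Targets of the Argonaute pathways were mixed. TAS3, the precursor that AGO7 cuts, was at 58.0, 40.0 and 60.9 FPKM in WT and fell to 29.1, 23.7 and 26.9 in arid2/3/4 (-0.95 ± 0.18, adjusted p 0.00996). In epcr1/2 it was at 31.9, 35.5 and 37.9 (-0.56 ± 0.18, adjusted p 0.0545, or 0.0175 with the block and 0.0583 with replicates 1 and 2 averaged). ARF4, a target of TAS3 small RNAs, was at 10.9 to 12.2 FPKM in WT and rose in epcr1/2 to 18.5 to 24.8 (0.79 ± 0.15, adjusted p 0.00653), while ARF2 and ARF3 were not called without the block (with it, 0.0463 for ARF2 as lower and 0.0446 for ARF3 as higher in epcr1/2, and 0.177 and 0.168 with replicates 1 and 2 averaged). Of these 4 genes 0 rose and 1 fell in arid2/3/4, with 0 and 1 also at an unadjusted p under 0.05, and 1 rose and 0 fell in epcr1/2 (2 and 1 unadjusted). Of the 5 class III HD-ZIP genes under miR166, the microRNA that AGO10 sequesters, 0 were called in arid2/3/4 (limma, 1 higher at an unadjusted p under 0.05), and 2 rose and 0 fell in epcr1/2 (3 and 0 unadjusted). With the block it was 1 and 0 in arid2/3/4 and 3 and 0 in epcr1/2. Of all genes, 8.78% were higher and 12% lower in arid2/3/4, and 10.8% and 17.8% in epcr1/2. The block called 45.1% and 51.2% of all genes in either direction. PHB was at 12.3 to 17.1 FPKM in WT and 26.3 to 27.6 in epcr1/2 (0.87 ± 0.19, adjusted p 0.0117), and PHV at 8.83 to 10.5 and 18.2 to 20.4 (0.89 ± 0.14, adjusted p 0.00324). PHV in arid2/3/4 was at 12.7 to 16.3 (adjusted p 0.0552, or 0.0137 with the block and 0.103 with replicates 1 and 2 averaged).

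Of 38 other microRNA targets, which AGO1 mostly serves, 4 rose and 4 fell in arid2/3/4 (median -0.12), and 6 rose and 5 fell in epcr1/2 (median -0.15). These counts are near the shares of all genes, 8.78% higher and 12% lower in arid2/3/4 and 10.8% and 17.8% in epcr1/2. With the block it was 7 and 12, and 10 and 15, in a fit that called 45.1% and 51.2% of all genes in either direction. CUC1, a boundary gene under miR164, was at 0.173 to 0.556 FPKM in WT, 3.98 to 5.68 in arid2/3/4 (2.04 ± 0.27, adjusted p 0.00198) and 6.38 to 13.1 in epcr1/2 (2.99 ± 0.27, adjusted p 0.000293). CUC2, its partner, rose in epcr1/2 (1.80 ± 0.23, adjusted p 0.00123). In WT, CUC1 and CUC2 reached 0.5 FPKM only in replicate 1 (0.556 and 0.775). Both thus passed the filter only with the mutant libraries, and their calls are a description. PHO2, the phosphate regulator under miR399, rose in arid2/3/4 (1.34 ± 0.22, adjusted p 0.00516) and in epcr1/2 (1.45 ± 0.22, adjusted p 0.00246). GRF1, a growth factor gene under miR396, fell in arid2/3/4 (-1.08 ± 0.20, adjusted p 0.00849) and in epcr1/2 (-1.46 ± 0.20, adjusted p 0.00157). TCP4, under miR319, fell in epcr1/2 (-1.77 ± 0.29, adjusted p 0.00328). The table lists MIR168B, MIR403 and MIR390A at 0 in all 9 libraries and MIR168A at 0 in all but replicate 3 of epcr1/2, at 7.81 FPKM. MIR162A was at 0 in every library numbered 1 or 2 and above 0 in the 3 libraries numbered 3, at 12.7 FPKM or less. In mRNA libraries a 0 for such short genes does not give the level of the microRNA, so no level of miR168 or miR403 stands beside AGO1, AGO2 and AGO3.

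**Figure D5:**
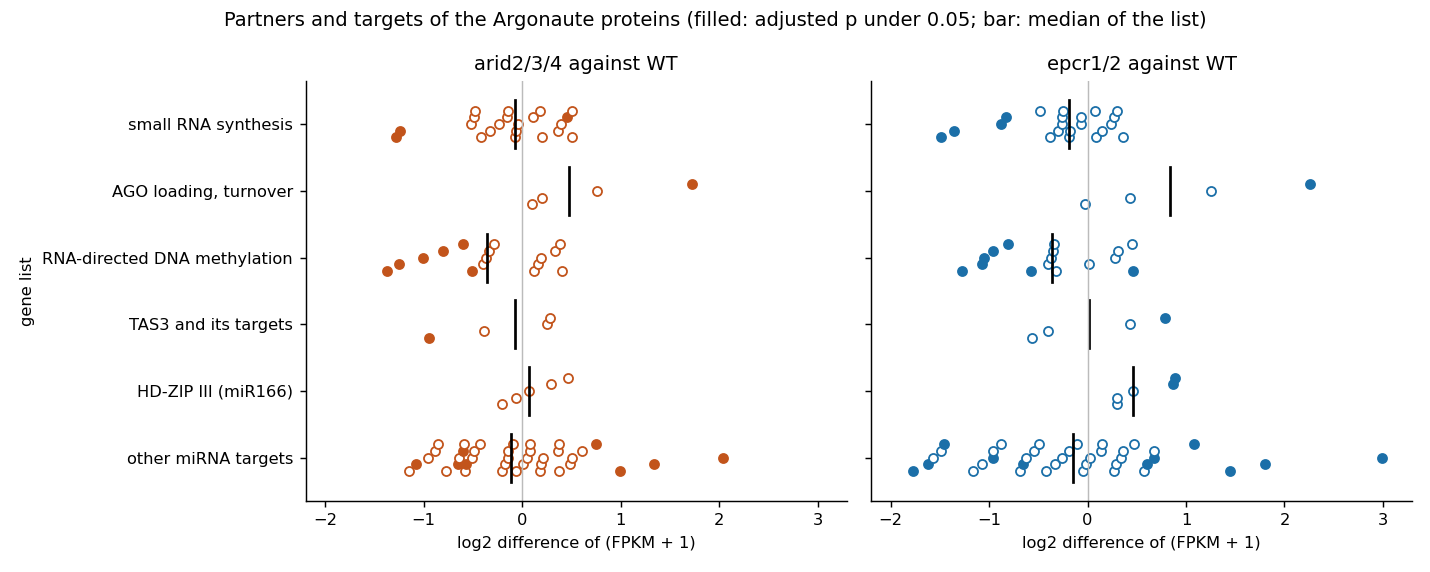
Log2 difference from WT of (FPKM + 1) (horizontal axes) for the genes of 6 lists (vertical axis) in arid2/3/4 and epcr1/2, with the median of each list as a bar and filled points at an adjusted p under 0.05. The partners in RNA-directed DNA methylation have medians of -0.35 and -0.36, and the other microRNA targets spread to both sides.

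Markers of other tissues moved with the genotypes, and their part in the Argonaute differences was not tested. Of all genes, 8.78% were higher and 12% lower in arid2/3/4, and 10.8% and 17.8% in epcr1/2, with medians of -0.05 and -0.12. Of 22 markers, 20 were tested, and 6 rose and 2 fell in arid2/3/4 (median 0.45), 10 rose and 2 fell in epcr1/2 (median 1.04). With the block 7 were higher and 4 lower in arid2/3/4, and 11 higher and 4 lower in epcr1/2. That fit called 45.1% and 51.2% of all genes in either direction. The 3 seed markers rose in both mutants, and their summed level was 0.767 to 0.943 FPKM in WT, 37.9 to 239 in arid2/3/4 and 72.6 to 169 in epcr1/2. EM1, a late embryogenesis gene, was at 0.115 to 0.526 FPKM in WT, 30.2 to 52.1 in arid2/3/4 (5.05 ± 0.38, adjusted p 0.000238) and 16.6 to 48.7 in epcr1/2 (4.66 ± 0.38, adjusted p 0.000227). The storage protein gene CRA1 rose by 4.92 ± 1.09 (adjusted p 0.0165) and 5.50 ± 1.09 (adjusted p 0.00765), and the oleosin gene OLEO1 by 4.45 ± 0.92 (adjusted p 0.0129) and 4.53 ± 0.92 (adjusted p 0.00855). In arid2/3/4 the CRA1 call was lost without replicate 1 or 2 of WT or of arid2/3/4, and the OLEO1 call without arid2/3/4 replicate 2 (adjusted p 0.053). OLEO1 reached 0.5 FPKM only in the mutants. In WT, EM1 reached it only in replicate 3 (0.526) and CRA1 only in replicate 2 (0.521). These genes thus passed the filter only with the mutant libraries. A difference from WT was built into their passing, and their calls are a description. In arid2/3/4 the seed sum was lowest in replicate 3, where AGO5 and AGO9 were highest. Of the 3 flower markers, relevant because AGO5 and AGO9 are known from reproductive tissue, 1 rose in each mutant. It was AP3 in arid2/3/4 and AP1 in epcr1/2. AP3 reached 0.5 FPKM only in the mutants and AP1 only in epcr1/2. A difference was thus built into their passing the filter, and their calls are a description. With replicates 1 and 2 averaged the AP3 call was lost (limma, adjusted p 0.064). The flower sum was 0.291 to 0.462 FPKM in WT, 1.13 to 5.76 in arid2/3/4 and 1.40 to 2.38 in epcr1/2. AG, too low to test, was below WT in both mutants. It was at 0.15 to 0.224 FPKM in WT, 0 to 0.0537 in arid2/3/4 and 0.0375 to 0.0844 in epcr1/2. AP1 was at 0 to 0.0812 in WT, 0 to 0.0787 in arid2/3/4 and 0.631 to 0.844 in epcr1/2. AP3 was at 0.0599 to 0.266 in WT, 1.08 to 5.71 in arid2/3/4 and 0.717 to 1.68 in epcr1/2. Of the 3 defence markers, set beside AGO2, 1 rose in each mutant, and the sum was 13.6 to 744 FPKM in WT, 157 to 1069 in arid2/3/4 and 246 to 282 in epcr1/2. PR1 made up most of that sum in replicates 1 and 2, and PR2, the called marker, was at 8.49 to 36.3, 97.1 to 284 and 68.6 to 115. The PR2 call was lost in both mutants with replicates 1 and 2 averaged and a batch term (limma, adjusted p 0.0555 and 0.0677). The sum was lowest in replicate 3, as AGO2 was, while PR2 and PR5 in epcr1/2 were highest there. Of the 5 shoot meristem markers, set beside AGO10, 1 rose in arid2/3/4 and 4 in epcr1/2. Among those called in epcr1/2, CLV3 and WUS reached 0.5 FPKM only in the mutants. A difference from WT was thus built into their passing the filter, and their calls are a description. The meristem sum was 13.7 to 18.9, 21.8 to 41.4 and 68.0 to 92.0 FPKM. With replicates 1 and 2 averaged, the arid2/3/4 call, that of STM, was lost (limma, adjusted p 0.0789). In epcr1/2 WUS was lost in that fit (0.0504) and KNAT1 was gained (0.0277). The leaf sum was 18658 to 26190 FPKM in WT, 6978 to 13820 in arid2/3/4 and 5002 to 16920 in epcr1/2. The root sum was 46.2 to 76.1, 26.4 to 47.3 and 28.3 to 48.2, so leaf and root transcripts were present in every library. Their levels differed, as 1 leaf marker and the root marker CASP1 fell in each mutant (CASP1, limma, adjusted p 0.000364 and 7.81e-05). In epcr1/2 1 root marker rose. With replicates 1 and 2 averaged, the leaf call in arid2/3/4 (0.098) and the root rise in epcr1/2 (0.0519) were lost.

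The genes most like each member across the 9 libraries were found by Pearson's r of log2(FPKM + 1), after the mean of each replicate number was removed. With 3 genotypes in 9 libraries, many genes reach a high r, and the values are a description. MES10, a methylesterase gene, and MBP2, a myrosinase-binding protein gene, were most like AGO3 (r = 0.999 each). AT2G25330 and AT5G23480 were most like AGO5 (0.998 each), AT5G59660 and the ribosomal protein gene RPL3B most like AGO9 (0.994 and 0.992), and GGH2 and AT3G15350 most like AGO2 (0.996 and 0.994). AT2G04235 and AT1G51370 were most like AGO1 (0.996 and 0.995), AT5G13880 and the amine oxidase gene CuAO1 most like AGO7 (0.997 and 0.995), and AT5G66050 and AT1G19835 most like AGO4 (0.993 and 0.992). AT3G10260 and AT1G16930 were most like AGO6 (0.986 and 0.983), and AT1G62870 and NET1A most like AGO10 (0.991 each). Within the family r was 0.959 for AGO2 with AGO9, 0.952 for AGO3 with AGO7, 0.925 for AGO5 with AGO9, and -0.963 for AGO1 with AGO3, over the same 9 libraries.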

How the data were processed

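mRNA-seq values of 9 libraries were used, 3 for each genotype, grouped by the labels. The authors deposited 1 table of 28117 genes without a stated unit. Its deposited values were taken to be FPKM, from their decimals, unequal column sums and steps, and because Cuffdiff writes FPKM. STAR 2.5.2b, Cuffdiff and the TAIR10 build are named in the submitters' processing notes, and annotation, strand and multi-read settings are not given in the sources used here. Depth was estimated from the lowest values times transcript length, and no counting interval is given. All 278 organelle genes are listed at 0, and the 27839 nuclear genes matched TAIR10.1.

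A gene was tested where 3 or more of the 9 libraries reached 0.5 FPKM, which kept 21168, 9 of them Argonaute genes. The test was limma 3.58.1 in R 4.3.3 on log2(FPKM + 1), with 1 mean per genotype over all 9 libraries, a variance trend, and Benjamini-Hochberg adjustment over all tested genes. A call is an adjusted p under 0.05. Fold changes on this scale understate those of low genes. The scripts were tested on simulated data.

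The labels number the replicates 1 to 3 in every genotype. In the 9 pairs of libraries with one number, deviations from the mean of the genotype had correlations of 0.63 to 0.84, above 0.1, so the number was also fitted as a replicate block. Libraries 1 and 2 of different genotypes correlated as much (0.66 to 0.76), and library 3 against library 1 or 2 gave -0.82 to -0.68, so the pairing mainly sets replicate 3 apart.

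All 10 Argonaute genes are named. From 8 gene lists written by hand, the text names up to 3 called genes with the largest change per mutant, or 1 where none was called, a fixed set of direct partners, the MIR168 and MIR403 genes, and the 2 genes most like each tested member (mean of at least 1 FPKM). SPT5L, FBW2, SQN and other partners belong to that set. AT1G31300, AT1G31310 and HDT4, and the other members of short lists, were named after their values were seen. So were SHH1, DMS3, FDM1, NRPD1 and RDM4. Members and lists were chosen with earlier results of these data known. Sequences and positions are RefSeq's, of TAIR10.1, and 1 upstream window is not reported here. Alternatives were the block, replicates 1 and 2 averaged or alone, pseudocount 0.1, no filter or one at 2 FPKM, quantile normalization, median centring, only the groups compared, a 2-fold minimum and each library left out.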

Additional observations from a re-analysis of the deposited data

Results flagged for a closer look

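For 2 members the arid2/3/4 and epcr1/2 libraries differed in a direct test between the mutants (limma, the same fit as above). AGO5 was higher in arid2/3/4 than in epcr1/2 by a log2 difference of 4.30, in 3 of 3 pairs of libraries with the same number and without overlap. AGO5 passed the filter on low values only through arid2/3/4, so its difference there is a description, and in a fit with no filter its adjusted p was 0.00023. AGO9 was higher by 1.44 (adjusted p 0.00965), also in 3 of 3 pairs and without overlap, and that call was lost with replicates 1 and 2 averaged and a batch term (1.53, adjusted p 0.0932).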

How the results depend on the processing

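Counts of calls moved with the way the replicates entered the fit, and the cause was not tested. Without the block 4399, 6039 and 2218 genes were called in arid2/3/4 against WT, in epcr1/2 against WT and between the mutants, with 4, 2 and 2 Argonaute genes. With the replicate block it was 9545, 10832 and 6039 genes and 7, 5 and 4 Argonaute genes. On replicates 1 and 2 only it was 13671, 13755 and 11396, with 8, 7 and 6. With replicates 1 and 2 averaged and a batch term, which leaves fewer samples, 2003 were called in arid2/3/4 and 49 between the mutants, with 1 Argonaute gene there. With only the groups compared 1477 were called between the mutants. A 2-fold minimum kept 2434, 3563 and 1111, and 1 Argonaute gene in epcr1/2. Leaving out 1 library gave 2169 (without arid2/3/4 replicate 2) to 7064 (without arid2/3/4 replicate 3), 3708 (without epcr1/2 replicate 2) to 7575 (without arid2/3/4 replicate 3) and 834 (without epcr1/2 replicate 2) to 3284 (without arid2/3/4 replicate 3), with 1 to 2 Argonaute genes in epcr1/2.

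The sign of small differences turned. AGO4 in epcr1/2 was 0.09 after quantile normalization and 0.17 after median centring. AGO7 between the mutants was -0.07 and -0.09, and AGO1 there -0.04 after centring. Leaving out 1 library gave AGO4 -0.51 to 0.03 in arid2/3/4, -0.21 to 0.20 in epcr1/2 and -0.50 to 0.04 between them, AGO7 -0.06 to 0.12 between them, and MIR162A -1.19 to 1.26 and -1.19 to 0.60 in the mutants. Log2 differences were recomputed in each setting for the Argonaute genes and for the list genes named by the size of their change. Of these, 975 kept sign and call, 34 gained a call, 50 lost it and 18 changed sign. Partners, markers and other genes named on other grounds are not in these totals. With replicates 1 and 2 averaged, the calls of AGO9 in epcr1/2 and between the mutants, CPL1, NRPE1, PHO2, CRA1 and OLEO1 in arid2/3/4, PHB in epcr1/2 and HSP90.1 in both mutants were lost. Also lost there were PR2 in both mutants, AP3 and STM in arid2/3/4, WUS in epcr1/2, and the leaf and root calls given with the markers. The same holds for SHH1, DMS3 and FDM1 in arid2/3/4, and for NRPD1 and RDM4 in epcr1/2. The block changed no call of an Argonaute gene beyond those given with it in the text. At the lowest levels, AGO8 everywhere and AGO5 in WT replicates 1 and 2, a few fragments set the value.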
